A study of Mus musculus with 29 samples.

Results

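Cultures given doxycycline (Dox) were compared with untreated cultures at 72 h, the last time sampled, in mouse primary tail keratinocytes. The comparison held 8 of the 29 arrays of the series, chosen by their labelled time. Of these, 4 arrays were labelled Dox and 4 untreated. All cultures were C57BL/6 keratinocytes, the epithelial cells of the skin, carrying the inducible c-Fos transgene called c-FostetON, and all were grown at 32 °C. Dox cultures received doxycycline at a dose that 1 label field gives as 1 µg/ml and another as 1 µg/L. Untreated cultures carried the transgene and received none, so an effect of doxycycline itself and an effect of c-Fos cannot be told apart. The sources used here do not name the promoter or the transactivator that drives the transgene. Each array carries a letter, and in each treatment letters A and B have 1 array and letter C has 2. The 2 letter C arrays were averaged, which left 3 against 3 replicates. No label says whether letters are animals or cultures, so all p-values measure the spread between these samples, which may be technical.

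As background, c-Fos pairs with a Jun protein to form AP-1, a transcription factor that binds the DNA sequence TGAGTCA. In epidermis AP-1 is known to act on genes of the cornified envelope, on matrix-degrading proteases and on secreted mediators of inflammation. In a tet-on system a doxycycline-bound transactivator switches on the transgene.

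Signals were log2 values after background correction and quantile normalization, and a difference is always Dox minus untreated on that scale. The median raw signal per array was 68.9 to 74.5 with Dox and 69.9 to 72.0 without, and detected probes made up 36.8 to 37.6% and 36.2 to 37.2% of 25697. Of 9 measured keratinocyte markers 8 were detected on all 8 arrays, with a summed signal of 43151 to 45614 with Dox and 41065 to 44679 without. Of 10 fibroblast markers 8 were detected on none of the 8 arrays (Col1a1, Col1a2, Col3a1, Pdgfra, Pdgfrb, Dcn, Lum and Dpt). The other 2, Vim and Thy1, were near background: Vim was detected on 3 Dox arrays and 0 untreated arrays, Thy1 on 0 Dox arrays and 2 untreated arrays, and their summed signal was 15.6 to 21.8 with Dox and 11.7 to 23.5 without. The 7 leukocyte and 5 endothelial markers on the array were detected on none. Of 6 melanocyte markers on the array 2 were detected on all 8 arrays and 2, Tyr and Mitf, on none. The summed signal of the 4 measured was low, 47.5 to 62.5 with Dox and 50.4 to 76.8 without. Of 9 hair follicle markers 7 were detected on none of the 8 arrays and 1 on all 8. The summed signal of the 3 measured was 173 to 216 with Dox and 178 to 225 without. In RNA from whole cultures, fewer cells of a type and less RNA per cell cannot be told apart.

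Fos, the transgene's own gene, was lower on the arrays labelled Dox. In the order A, B, C and the other C, its single probe read 5.58, 6.16, 6.04 and 5.92 with Dox, against 6.86, 6.53, 6.61 and 6.74 without. All Dox arrays lay below all untreated arrays, and the difference of -0.78 (SE 0.16) passed the test (limma, adjusted p = 0.00166). The sources used here do not place this probe on the transgene. All directions below rest on the arrays' labels. Of 8 measured AP-1 subunits, 1 rose, 2 fell and 5 missed the threshold, with a median difference of -0.20. Fosl1, the Fos relative Fra-1, read 7.47, 7.18, 7.28 and 7.37 with Dox, against 6.79, 6.84, 6.71 and 6.71 without. Its arrays did not overlap, and it rose by 0.55 (SE 0.12, adjusted p = 0.00357), a call that ended under median scaling and on the authors' own normalized values. Atf3, a stress-induced dimer partner, was the other subunit that fell (-0.80), and Jun, Junb and Jund differed by -0.27, -0.17 and 0.11 without passing the test.

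Over the 8271 measured genes, 517 passed an adjusted p of 0.05, which is 6.25% of those tested. Of these, 241 (2.91%) were higher and 276 (3.34%) lower with Dox. Scaling each array by its median instead called 122 higher and 227 lower, and 340 of these 349 genes were among the 517, so the higher share of calls was 46.6% after quantile normalization and 35.0% after median scaling. Most differences were modest, as the plot of difference against level shows: the called rises had a median of 0.55 and the called falls of -0.57, while the median of all genes was -0.01. Only 62 called genes (0.75%) differed at least 2-fold, 22 higher and 40 lower. Calls were fewer among dim genes, with 29 of 2067 genes (1.4%) in the lowest of 4 bins of mean level and 194 of 2068 (9.38%) in the highest. The arrays of the treatments did not overlap for 493 of the called genes and overlapped for 24. Over all genes 1298 (15.7%) did not overlap.

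**Figure D1:**
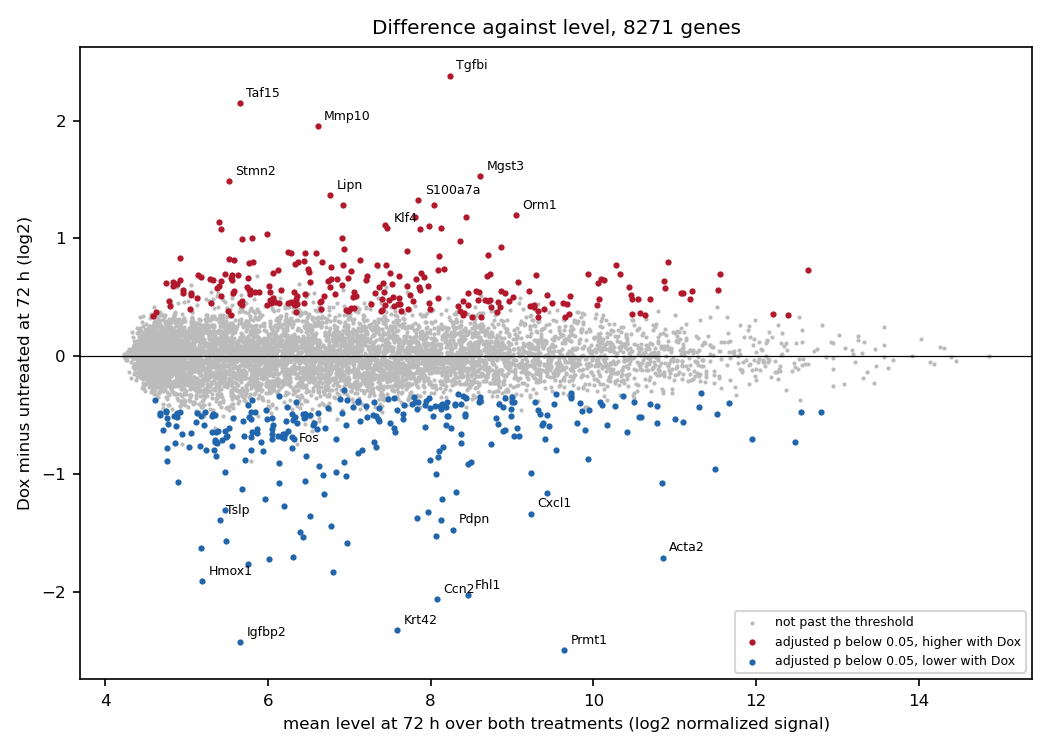
Each point is 1 of 8271 genes, with its mean log2 level at 72 h on the x axis and the log2 difference, Dox minus untreated, on the y axis. Red points passed the test higher with Dox and blue points lower, grey points did not pass, and Tgfbi lies at 2.38 and Prmt1 at -2.50.

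Matrix genes were among the largest measured rises. Tgfbi, an integrin-binding matrix protein, read 9.19, 9.41, 9.72 and 9.64 with Dox, against 7.12, 6.93, 6.89 and 7.31 without. The lowest Dox array stood well above the highest untreated array. The difference was 2.38 (SE 0.12, adjusted p = 5.68e-13), a 5.21-fold higher level, and it was 1.56 on the gene's second probe. Hspg2, the basement membrane proteoglycan perlecan, read 7.52, 7.71, 7.56 and 7.38 with Dox, against 6.12, 6.31, 6.52 and 6.30 without. Tinagl1, a matricellular protein of basement membranes, read 8.67, 8.51, 8.49 and 8.33 with Dox, against 7.26, 7.64, 7.43 and 7.30 without. Hspg2 and Tinagl1 rose by 1.29 and 1.11. Among 18 measured collagens and matrix glycoproteins 3 rose and 1 fell, with a median of 0.04. Beside Hspg2, the 2 that rose were Col7a1, the anchoring fibril collagen (0.68), and Col16a1, a collagen found near basement membranes (0.47). The Col16a1 call ended under median scaling, on the authors' values and without 4 of the 6 replicates in turn, and an undetected second Col7a1 probe differed by 0.12. The 1 that fell was Tnc, the wound matrix protein tenascin-C, at 7.53 ± 0.07 with Dox and 8.74 ± 0.09 without (SD, n = 3 each), a difference of -1.21.

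Matrix metalloproteinases and their inhibitors moved in both directions. Mmp10, a secreted stromelysin, read 7.81, 7.38, 7.55 and 7.62 with Dox, against 5.63, 5.75, 5.42 and 5.65 without. The difference was 1.95 (SE 0.15, limma, adjusted p = 5.11e-10). Of 11 measured members of the list 3 rose, 2 fell and 6 missed the threshold, with a median of -0.14, and without any 1 replicate 2 rose. The inhibitors split: Timp1 rose by 0.81 and Timp2 by 0.42, while Timp3, the inhibitor that binds to the matrix, fell to 5.72, 5.48, 5.77 and 5.77 with Dox, against 7.21, 7.20, 7.47 and 6.90 without. The Timp3 difference was -1.54 on that probe and -0.41 on a second probe that was undetected with Dox and missed the threshold (adjusted p = 0.0770). The gelatinase Mmp2 fell by 0.64, and the collagenase Mmp13 and the gelatinase Mmp9 differed by 0.13 and -0.03 without passing. Plau, the urokinase plasminogen activator, read 7.66 ± 0.27 with Dox and 8.52 ± 0.14 without (SD, n = 3 each) and fell by 0.86.

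The hemidesmosome is the junction that ties basal keratinocytes to the basement membrane. Genes listed for it and for laminin-332 were higher with Dox. All 8 measured members had a positive difference and 4 passed the test, with a median of 0.38. The same 8 were positive under every scaling tried, and 3 or 4 passed when any 1 replicate was left out, while 2 to 5 passed under the other scalings, 2 of them on the authors' values. Itga6, the laminin-binding integrin subunit, read 8.01, 8.20, 8.21 and 8.31 with Dox, against 7.55, 7.19, 7.08 and 7.01 without, a difference of 0.89 (adjusted p = 2.26e-04). Col17a1, the transmembrane collagen of the junction, read 13.09, 12.83, 13.17 and 13.03 with Dox, against 12.26, 12.30, 12.22 and 12.32 without. Its 3 probes agreed, at 0.73, 0.83 and 0.68, and all passed. Col7a1 is the third called member of the list. Plec, the plakin that links the junction to keratin filaments, rose by 0.35 (limma, adjusted p = 0.0486). The Plec call ended in 13 of 22 alternatives, 4 of them fits without 1 replicate. The gene differed by 0.65 on its other called probe, and by -0.04 and -0.16 on probes near background. For Itgb4, the partner of Itga6, the brightest probe differed by 0.26 without passing, and a dimmer probe by 0.59 with an adjusted p of 9.60e-04.

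Over all measured genes 2.91% rose and 3.34% fell, the shares beside which the counts of list members here and elsewhere stand. Of 9 measured desmosome genes 2 rose and 0 fell, with a median of 0.15. These were the plakophilins Pkp1 and Pkp3, plaque proteins of the desmosome, which rose by 0.49 and 0.55, while the cadherins Dsg3 and Dsg2 differed by -0.04 and 0.03 without passing. Of 12 genes of adherens, tight and gap junctions 1 fell, the claudin Cldn4 (-0.42), and 0 rose. The Cldn4 call ended on the authors' values and in 4 of the 6 fits without 1 replicate. Of 13 basal keratinocyte genes 3 rose and 0 fell: Itga6, Col17a1 and Trp63, the master transcription factor of stratified epithelia. Trp63 read 11.73, 11.96, 11.75 and 11.77 with Dox, against 11.14, 11.31, 11.26 and 11.39 without, a difference of 0.56. The basal keratins Krt5 and Krt14 differed by -0.05 and -0.01 without passing the test.

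Differentiation genes did not move as a block. Of 12 measured cornified envelope and late genes 2 rose and 2 fell, with a median of -0.22. Klf4, a transcription factor needed for the skin barrier, read 7.77, 8.15, 8.02 and 8.19 with Dox, against 6.95, 7.19, 6.68 and 6.57 without, and rose by 1.09. Its other probes gave 0.98 and 0.90, and both passed. Ppl, the envelope protein periplakin, rose by 0.50. Casp14, the protease of cornification, and Tgm1, the transglutaminase that cross-links the envelope, fell by 0.80 and 0.72, and involucrin (Ivl) and loricrin (Lor) differed by -0.55 and 0.01 without passing. Of 12 spinous genes 2 rose: Krt78, a suprabasal keratin, by 1.03, and Lypd3, a surface protein of suprabasal cells, by 0.36. Without any 1 replicate, 0 or 1 of the 12 rose. Krt10, the principal spinous keratin, differed by -0.17 without passing. Of 17 ceramide and lipid genes 1 rose, the barrier lipoxygenase Aloxe3 (0.77), and 1 fell, the fatty acid elongase Elovl4 (-0.36).

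Lipn, a lipase of late epidermal differentiation, read 7.40, 7.37, 7.59 and 7.57 with Dox, against 6.27, 6.16, 5.81 and 5.83 without, a difference of 1.37. Among 12 measured S100 calcium-binding proteins 3 rose and 2 fell. S100a7a, a psoriasin-related protein of inflamed epidermis, read 8.54, 8.58, 8.54 and 8.30 with Dox, against 7.24, 7.06, 7.17 and 7.37 without, a rise of 1.32. The others that rose were S100a3 (0.50) and S100a16 (0.47). S100a8 and S100a9, the subunits of calprotectin, went the other way, at 9.72 ± 0.20 and 6.67 ± 0.08 with Dox against 10.17 ± 0.12 and 7.25 ± 0.20 without (SD, n = 3 each). Their falls of 0.46 and 0.58 passed, but 0 of the 12 fell under median scaling, on the authors' values, with a beta-actin covariate described below, or when any of 4 replicates was left out in turn. Of 11 small proline-rich genes only Sprr2k passed, with a rise of 0.73, and a probe may not tell these closely related genes apart.

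Keratins outside the basal and spinous programmes divided by gene. Krt42, a type I keratin of stratified epithelia, read 6.69, 6.47, 6.11 and 6.13 with Dox, against 8.82, 8.76, 8.65 and 8.70 without. The difference was -2.33 (SE 0.15, adjusted p = 7.39e-11). Krt6a, the wound-induced keratin, read 8.56, 9.27, 8.96 and 8.44 with Dox, against 7.87, 7.84, 7.48 and 8.30 without, and rose by 0.98, with 0.50 on its other probe, which did not pass (adjusted p = 0.232). The Krt6a call ended without Dox replicate 2 (0.76, adjusted p = 0.102). The other 4 measured wound and stress keratins, Krt6b, Krt16, Krt17 and Krt75, did not pass. All 4 measured simple epithelial keratins had negative differences, and Krt23 (-0.77) and Krt18 fell. In 5 of the 6 fits without 1 replicate the Krt18 call ended. Krt18 was detected on none of the Dox arrays and on all 4 untreated arrays, at 4.50 ± 0.12 and 5.03 ± 0.01 (SD, n = 3 each). Where a probe was undetected on every array of a treatment, the fold is a bound against the detection limit, and Krt18 was at least 1.21-fold lower with Dox (adjusted p = 0.0194).

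Further large rises came from genes of varied function. Mgst3, a microsomal glutathione transferase, read 9.41, 9.49, 9.27 and 9.17 with Dox, against 7.80, 7.87, 7.81 and 7.92 without, and its probes differed by 1.53 and 1.51. Igfbp3, a binding protein of insulin-like growth factors, read 9.22, 9.05, 8.80 and 8.82 with Dox, against 7.86, 7.84, 7.87 and 7.81 without. Sema5a, an axon guidance molecule, read 8.61, 8.67, 8.68 and 8.88 with Dox, against 7.56, 7.46, 7.34 and 7.04 without, and both of its probes differed by 1.28. For these genes lack of overlap was a condition of selection. The acute-phase plasma protein Orm1 rose by 1.20, the complement regulator Cr1l by 1.11 on either probe, and the cytochrome P450 Cyp2b9 by 1.14. The vitamin C transporter relative Slc23a3 rose by 1.09, Fam25c by 1.08 and Chmp4b, a subunit of the membrane-cutting ESCRT-III complex, by 1.18. Stmn2, a microtubule regulator of neurons, was detected on 2 of 4 untreated arrays and Olig1, a transcription factor of glia, on 3, so their differences of 1.49 and 1.08 rest on signals near background. Of 14 measured Wnt pathway genes 3 rose and 0 fell: the ligands Wnt3a by 0.85, Wnt4 by 0.77 and Wnt7b by 0.49. Leaving out any 1 replicate kept 2 or 3 of them.

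**Figure D2:**
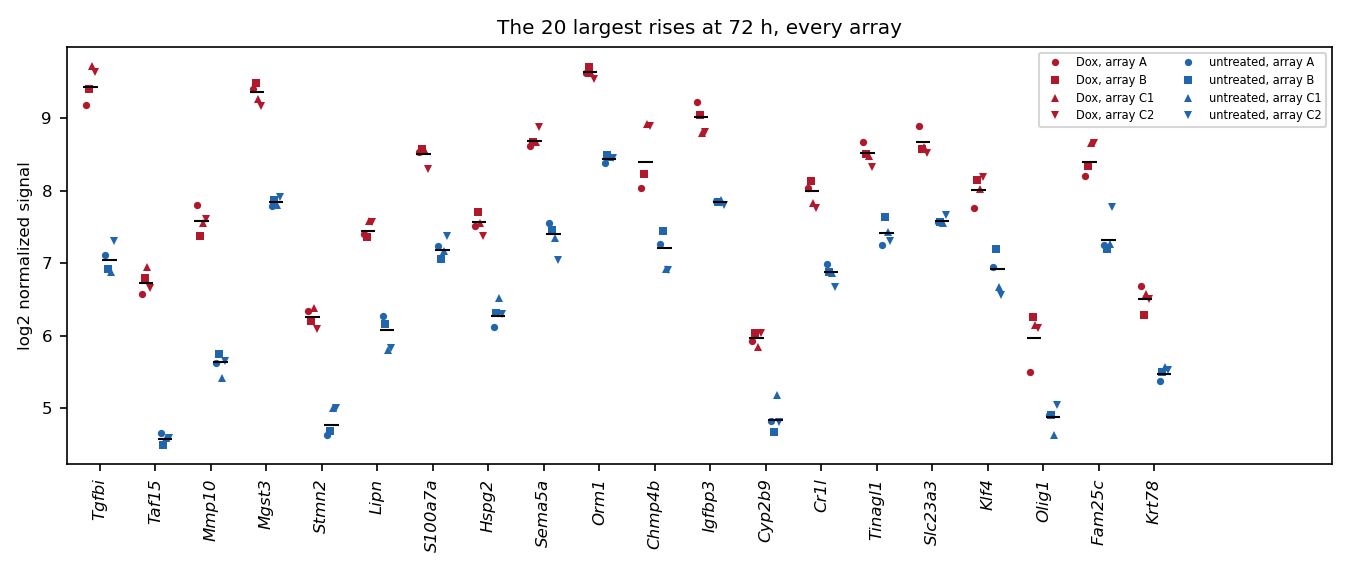
Each marker is the log2 normalized signal of 1 array for the 20 genes with the largest called rises and no overlap, 4 Dox arrays in red left of 4 untreated arrays in blue, with marker shapes for the letters and a bar at the mean of the 3 replicates. The gap between the means is widest for Tgfbi and narrowest for Krt78. Taf15, Stmn2, Cyp2b9 and Olig1 have untreated arrays near the lower limit of the scale.

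Contractile and LIM-domain genes were lower with Dox. Of 18 measured members 7 fell, 0 rose and 11 missed the threshold, with a median of -0.24, and 7 fell under every scaling and without any 1 replicate. Acta2, smooth muscle actin, read 9.86, 10.14, 10.05 and 9.93 with Dox, against 11.69, 11.86, 11.67 and 11.49 without. It was abundant in both treatments. The difference was -1.71 (SE 0.12, adjusted p = 9.60e-11), and its other 3 probes ran from -1.72 to -0.95, all past the threshold. Fhl1, a LIM protein of stress fibres and muscle, read 7.42, 7.58, 7.31 and 7.37 with Dox, against 9.40, 9.59, 9.47 and 9.40 without, and differed by -2.03 and -1.87 on its probes. Zyx, the focal adhesion protein zyxin, read 12.10, 12.09, 12.18 and 12.09 with Dox, against 12.81, 12.85, 12.90 and 12.83 without, a fall of 0.73 with very little spread. Acta1, Csrp1, Pdlim7 and Tpm1, an actin, a pair of LIM proteins and a tropomyosin, fell by 0.98, 0.64, 0.59 and 0.56. The smooth muscle markers Myh11, Des, Cnn1, Lmod1 and Actg2 were detected on none of the 8 arrays. The summed signal of the 2 measured, Smtn and Des, was 366 to 412 with Dox and 387 to 442 without. Of this pair only Smtn was detected, so the sum does not describe the list.

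Genes known to respond to the coactivator YAP showed 4 falls and 0 rises among 12 measured, with a median of -0.11. Ccn2, connective tissue growth factor, read 7.40, 6.91, 6.85 and 6.84 with Dox, against 8.97, 9.31, 9.03 and 9.11 without, and differed by -2.06. Nt5e, the ecto-nucleotidase CD73, read 7.42, 7.43, 7.46 and 7.46 with Dox, against 8.89, 8.70, 8.95 and 8.82 without, a fall of 1.39. Gadd45b, a stress sensor, and Ccn1, a matricellular relative of Ccn2, fell by 1.17 and 0.73. Other members did not pass, among them Ankrd1 (0.07), Axl (0.04) and Amotl2 (-0.15). Of 9 genes of the mesenchymal shift 3 fell, Acta2, Pdpn and Tnc, and 1 rose, Igfbp3. Pdpn, the membrane glycoprotein podoplanin, read 7.53, 7.46, 7.60 and 7.63 with Dox, against 9.06, 9.10, 8.93 and 8.79 without, a fall of 1.47. Vim and the transcription factors Twist1 and Zeb1 differed by 0.35, 0.16 and -0.07 without passing, and Vim was near background. The TGF-beta pathway list had 1 rise, Tgfbi, and 2 falls, the receptor Tgfbr2 (-0.42) and the ligand Tgfb1 (-0.34), of 15 measured. The Tgfb1 call ended in 13 of 22 alternatives, among them every fit without 1 replicate, and the Tgfbr2 call in 7, among them 3 of those fits. On the authors' values and with the beta-actin covariate described below both ended.

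Endothelins were lower with Dox. The vasoactive peptide Edn2 read 5.34, 5.49, 5.68 and 5.38 with Dox, against 7.21, 7.16, 7.16 and 7.03 without, and Edn1 fell by 1.27 and the endothelin-converting enzyme Ece1 by 0.61. In the list of endothelins and caveolins 3 of 7 measured fell and 1 rose, the caveolae protein Cav1 (0.48), whose call ended in every fit that left out 1 replicate. Nppb, the precursor of B-type natriuretic peptide, read 6.17, 6.25, 6.23 and 6.03 with Dox, against 7.79, 7.79, 7.83 and 7.62 without, a fall of 1.59. Of 7 measured chemokines 3 fell and 0 rose. Cxcl1, which attracts neutrophils, read 8.56, 8.51, 8.61 and 8.67 with Dox, against 9.94, 9.92, 9.83 and 9.90 without. Those arrays were far apart for so small a spread, and Cxcl12 and Cxcl16 were the others that fell. The Cxcl12 fall of 1.36 was on the brightest of 3 probes, and the other probes gave -0.30 and -0.27 and did not pass. The chemokine Ccl27a did not pass on its brightest probe, but a dimmer probe rose by 0.40 (limma, adjusted p = 0.0258).

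Of 13 measured epidermal cytokines 2 fell and 0 rose. Tslp, an epithelial cytokine of allergic skin, read 4.72, 4.61, 4.69 and 4.96 with Dox, against 6.47, 5.57, 6.28 and 6.30 without, and was detected on 1 of 4 Dox arrays and on all 4 untreated arrays. Il1a, a stored alarm cytokine of keratinocytes, fell by 0.59. Of 10 antimicrobial genes 5 fell and 0 rose, from the protease inhibitor-like Wfdc2 (-1.16) and the defensins Defb6 (-0.59) and Defb14 (-0.47) to Slpi (-0.47) and Chil1. Between 2 and 4 of them fell when 1 replicate was left out. Chil1, a chitinase-like protein, was undetected on all Dox arrays and at least 1.17-fold lower (adjusted p = 0.0443; 4.51 ± 0.07 with Dox and 4.98 ± 0.10 without, SD, n = 3 each). Of 11 NF-kB response genes 4 fell and 0 rose: Tnfaip2 (-0.91), the adhesion molecule Icam1 (-0.53), the receptor Tlr2 (-0.49) and the feedback inhibitor Tnfaip3, undetected with Dox and at least 1.29-fold lower (adjusted p = 0.0164; 4.64 ± 0.03 and 5.12 ± 0.06). From 2 to 4 of these fell without any 1 replicate. The other Tnfaip2 probes differed by -0.22 and -0.23 and did not pass.

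Growth factor genes also changed. Of 6 EGF receptors and ligands 3 fell and 0 rose, and 1 to 3 fell when a replicate was left out. Epgn, the ligand epigen, read 10.98, 11.01, 11.06 and 11.10 with Dox, against 11.98, 12.00, 11.99 and 11.92 without, a fall of 0.95 at a high and tight level. Of 11 genes of MAP kinase feedback 2 fell, Ier3 (-1.08) and the phosphatase Dusp6 (-0.63), while Dusp1 and Egr1 differed by -0.18 and -0.11 without passing. Other Dusp6 probes differed by -0.48 and -0.31 and did not pass. In the insulin-like growth factor system 1 of 8 measured genes rose, Igfbp3, and 1 fell, Igfbp2. Igfbp2 read 4.54, 4.40, 4.45 and 4.33 with Dox, against 6.74, 7.02, 6.87 and 6.84 without. It was detected on none of the Dox arrays and on every untreated array, so it was at least 4.33-fold lower (adjusted p = 2.48e-14), and its other probe, also undetected with Dox, differed by -1.17. The receptors Igf1r and Igf2r differed by 0.04 and 0.16 without passing.

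The remaining large falls were of single genes. Ankk1, a kinase with ankyrin repeats, read 5.88, 5.82, 5.95 and 5.96 with Dox, against 7.82, 7.66, 7.75 and 7.58 without, a fall of 1.83. Cyp2b10, a cytochrome P450, read 7.28, 7.23, 7.27 and 7.52 with Dox, against 8.84, 8.81, 8.90 and 8.78 without. Its fall of 1.53 ran opposite to the rise of its relative Cyp2b9, and a second Cyp2b10 probe, near background, differed by -0.09. The zinc finger gene Snai3 read 6.11, 5.96, 6.05 and 6.13 with Dox, against 7.56, 7.62, 7.55 and 7.10 without. Eif4b, a translation initiation factor, was undetected on the Dox arrays and at least 2.35-fold lower (adjusted p = 1.41e-06; 4.36 ± 0.05 with Dox and 5.99 ± 0.24 without, SD, n = 3 each).

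**Figure D3:**
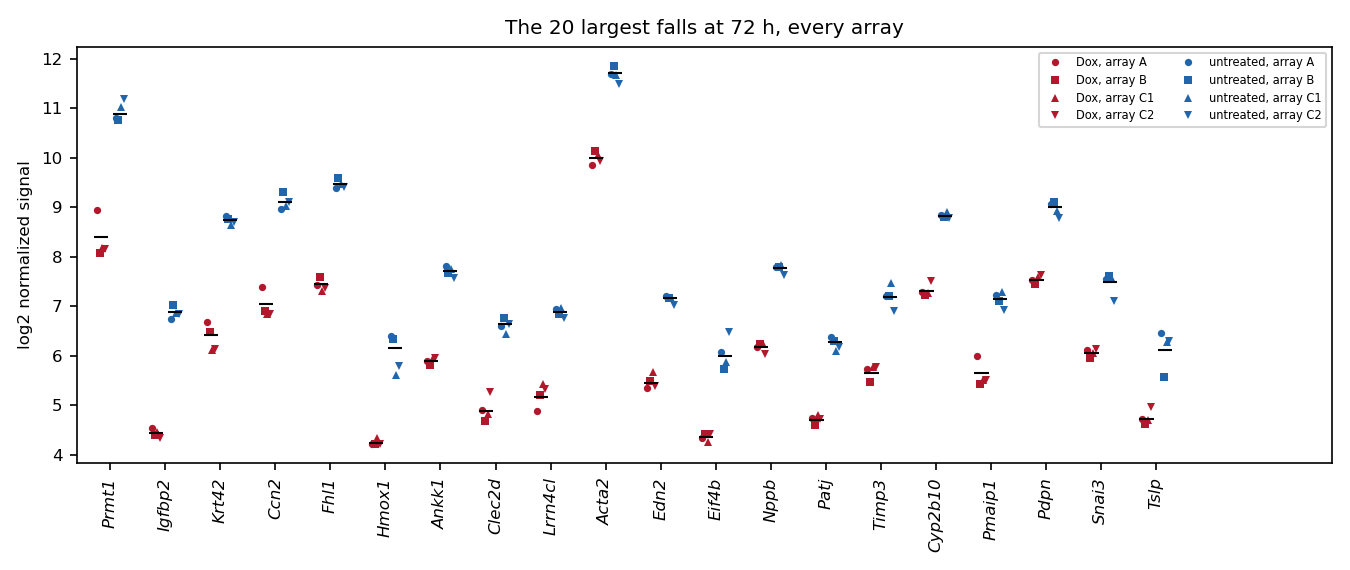
Each marker is the log2 normalized signal of 1 array for the 20 genes with the largest called falls and no overlap, 4 Dox arrays in red left of 4 untreated arrays in blue, with marker shapes for the letters and a bar at the mean of the 3 replicates. Igfbp2, Hmox1 and Eif4b sit at the lower limit of the scale with Dox, while Acta2 is the brightest of the 20 without Dox.

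The plot by list covers the gene lists with at least 6 measured and 3 called members. It shows the hemidesmosome and laminin-332 list wholly to the right of 0 and the contractile list mostly to the left. Over all measured genes 6.25% passed, and no list was tested as a set. Of 20 measured cyclins and cyclin-dependent kinase inhibitors, 15 endoplasmic reticulum chaperones, 12 heat shock chaperones and 14 genes of cholesterol synthesis, 0 passed limma's test, with medians of -0.13, 0.03, -0.10 and 0.01. At an unadjusted p below 0.05 the counts were 2, 2, 2 and 4, beside 1403 of all 8271 measured genes. Without background correction 1 cholesterol gene rose and 1 fell. Of 48 cytosolic ribosomal protein genes 1 fell, Rpl7a (-0.59), and the median was 0.00. Of 17 mitosis genes 2 fell, the centromeric histone Cenpa (-0.53) and the cell cycle activator Cdc20 (-0.40), with a median of -0.16 over the list, and 0 to 2 fell without 1 replicate. Of 22 DNA replication genes 1 fell, the thymidine kinase Tk1 (-0.41), with 0.07 and -0.20 on its other probes, which did not pass. The Tk1 call ended in 13 of 22 alternatives, among them median scaling, the authors' values and 4 of the 6 fits without 1 replicate. Among 26 genes of the integrated stress response Chac1, a glutathione-degrading enzyme, rose by 0.66 and Nupr1 fell by 0.53, while Atf4 and Ddit3 differed by 0.27 and -0.08 without passing. Nupr1 lost its call whenever 1 replicate was left out. Of 19 genes of hypoxia and glycolysis 2 rose, the phosphofructokinases Pfkl (0.55) and Pfkp (0.54), and 1 fell, the hexokinase Hk2 (-0.35), with a median of 0.18 and 10 genes at an unadjusted p below 0.05. Under median scaling and on the authors' values 0 rose, and without 1 replicate 0 or 1 rose.

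**Figure D4:**
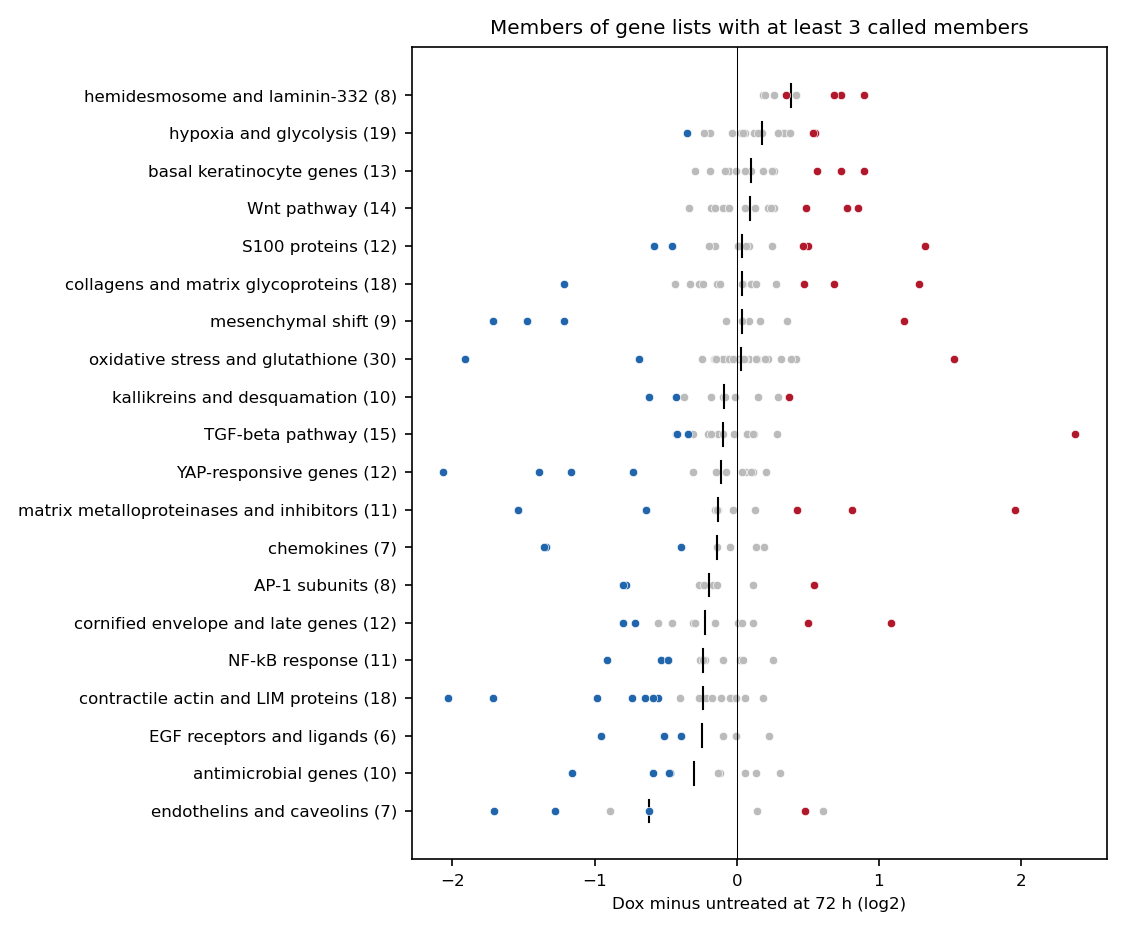
Each point is the log2 difference, Dox minus untreated, of 1 measured gene of a list, with the number of measured genes in brackets. Red points passed the test higher with Dox, blue points lower and grey points did not pass. Black bars mark list medians, from 0.38 for hemidesmosome and laminin-332 genes to -0.61 for endothelins and caveolins.

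Promoters of the called genes were searched for the AP-1 letters TGAGTCA on both strands, from 250 bases before to 50 after each RefSeq start site (build GRCm38.p6). They occurred in 18 of 194 called-higher genes with a promoter in the table (9.28%), in 18 of 218 called-lower genes (8.26%) and in 312 of 6337 measured genes that were not called (4.92%). Over all 32851 promoters of that length in the table the share was 5.2%. The letters of the TEAD motif, GGAATG, stood in 18.6% of called-higher, 17% of called-lower and 14.2% of uncalled genes, and the cyclic AMP element TGACGTCA in 3.61%, 1.83% and 3.77%. Of the 20 largest rises 17 had a promoter in the table and 3 held the AP-1 letters, with the first base at -63 in Mmp10, -148 in Lipn and -105 in Fam25c. Of the 20 largest falls 13 had a promoter and 2 held the letters, at -39 in 1 of 2 promoters of Igfbp2 and at -106 in 1 of 3 of Patj. These 5 promoters are printed because they are the ones among the largest changes with a match. Each runs 5′ to 3′ on the gene's strand, with the AP-1 letters, or their reverse complement, in capitals. The regions are chr9:7502092-7502391 (plus strand) for Mmp10, chr19:34067108-34067407 (plus strand) for Lipn, chr14:34355344-34355643 (minus strand) for Fam25c, chr1:72825137-72825436 (plus strand) for Igfbp2 and chr4:98410777-98411076 (plus strand) for Patj. A match describes the letters only, and no match says only that they are absent from this window.
Mmp10: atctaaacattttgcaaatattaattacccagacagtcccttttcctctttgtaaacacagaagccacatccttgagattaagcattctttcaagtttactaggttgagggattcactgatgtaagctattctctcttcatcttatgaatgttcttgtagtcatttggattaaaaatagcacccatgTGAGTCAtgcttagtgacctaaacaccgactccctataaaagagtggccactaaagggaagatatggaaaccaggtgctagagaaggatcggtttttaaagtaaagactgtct
Lipn: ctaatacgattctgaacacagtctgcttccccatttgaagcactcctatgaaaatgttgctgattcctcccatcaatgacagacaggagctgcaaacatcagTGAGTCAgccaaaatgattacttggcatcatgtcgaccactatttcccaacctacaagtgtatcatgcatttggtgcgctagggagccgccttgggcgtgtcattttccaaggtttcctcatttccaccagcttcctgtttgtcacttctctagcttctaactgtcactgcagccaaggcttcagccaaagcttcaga
Fam25c: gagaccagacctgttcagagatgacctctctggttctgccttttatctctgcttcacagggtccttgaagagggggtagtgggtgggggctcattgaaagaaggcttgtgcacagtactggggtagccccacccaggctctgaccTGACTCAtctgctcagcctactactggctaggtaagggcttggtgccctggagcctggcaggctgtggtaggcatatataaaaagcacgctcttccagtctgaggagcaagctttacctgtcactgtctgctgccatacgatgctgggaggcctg
Igfbp2: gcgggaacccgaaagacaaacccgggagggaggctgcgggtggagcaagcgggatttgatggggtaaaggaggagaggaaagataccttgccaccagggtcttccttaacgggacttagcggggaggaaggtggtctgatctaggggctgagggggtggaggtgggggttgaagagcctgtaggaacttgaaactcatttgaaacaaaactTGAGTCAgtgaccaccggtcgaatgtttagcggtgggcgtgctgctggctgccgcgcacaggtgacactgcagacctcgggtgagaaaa
Patj: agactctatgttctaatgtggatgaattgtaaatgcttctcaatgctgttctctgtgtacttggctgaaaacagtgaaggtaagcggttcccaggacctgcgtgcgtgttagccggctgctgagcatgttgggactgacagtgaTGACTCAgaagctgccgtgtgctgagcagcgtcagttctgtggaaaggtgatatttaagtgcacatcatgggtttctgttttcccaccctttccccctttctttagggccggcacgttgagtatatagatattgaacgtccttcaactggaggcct

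The comparison at 72 h was set against that at 48 h, which has its own untreated cultures and 2 against 3 replicates. At 48 h 213 genes (2.58%) passed. Of the 517 genes called at 72 h, 159 were called at 48 h, which is 30.8% of the 72 h calls and 74.6% of the 48 h calls, and all 159 had the same sign. A further 358 genes were called at 72 h and not at 48 h, and 300 of them (83.8%) had the same sign at 48 h, against 60.0% of all genes. In the direction of 72 h, the median difference of the 517 genes was 0.08 (6 h), 0.08 (12 h), 0.20 (24 h), 0.36 (48 h) and 0.56 (72 h), the value that chose the genes.

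A test of the difference between the effects at 72 h and 48 h called 16 genes (0.193% of those tested). Of these, 5 were more positive and 11 more negative at 72 h. An unadjusted p below 0.05 was seen for 493 of 8271 genes, where a share of 0.05 would be expected if no gene differed. The count ranged from 3 to 13 when 1 replicate of 48 or 72 h was left out, and it was 3 without Dox replicate 1 of 48 h. Prmt1, the principal arginine methyltransferase, read 8.94, 8.08, 8.18 and 8.15 with Dox at 72 h, against 10.80, 10.77, 11.03 and 11.19 without, a fall of 2.50. At 48 h it averaged 9.23 with Dox and 9.14 without, and at 24 h 10.47 and 10.23, with differences of 0.09 and 0.24. At 6 and 12 h the differences were 0.55 and -0.50. The probe varied between replicates, and the 2 untreated replicates at 6 h read 7.82 and 9.84. The difference between the effects was -2.59 (adjusted p = 0.00945), and of 7 measured methyltransferases of its family the other 6 did not pass at 72 h. Patj, a scaffold protein of the Crumbs polarity complex, read 4.74, 4.60, 4.80 and 4.71 with Dox at 72 h, against 6.39, 6.30, 6.10 and 6.17 without, and averaged 6.17 with Dox and 5.93 without at 48 h. At 6 h the 2 untreated replicates of Patj read 4.48 and 6.09, and its difference was 1.21. Its other probes differed by 0.14 and 0.29 at 72 h and did not pass.

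Hmox1, the haem-degrading stress enzyme, read 4.22, 4.22, 4.34 and 4.22 with Dox at 72 h, against 6.40, 6.35, 5.62 and 5.80 without. It was undetected on every Dox array and at least 2.62-fold lower (adjusted p = 1.49e-06), whereas at 24 h its difference was 1.19 and at 48 h -0.03. Pmaip1, the pro-apoptotic protein Noxa, read 6.00, 5.43, 5.51 and 5.51 with Dox, against 7.22, 7.10, 7.29 and 6.92 without, and Lrrn4cl, a leucine-rich repeat protein, read 4.89, 5.21, 5.42 and 5.32 with Dox, against 6.94, 6.83, 6.97 and 6.76 without. Both differed little between treatments at 48 h, by -0.11 and 0.17. In untreated cultures Lrrn4cl averaged 5.44 at 48 h and 6.88 at 72 h, and Pmaip1 6.17 and 7.14. Clec2d, a lectin bound by a natural killer cell receptor, read 4.90, 4.68, 4.83 and 5.27 with Dox at 72 h, against 6.61, 6.76, 6.43 and 6.65 without, while its difference was 1.23 at 6 h and 1.35 at 12 h.

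Taf15, an RNA-binding protein of the FET family, went the other way. It read 6.57, 6.80, 6.94 and 6.65 with Dox at 72 h, against 4.65, 4.49, 4.59 and 4.59 without, and was undetected on every untreated array. It was at least 3.84-fold higher (adjusted p = 8.90e-06) at 72 h and differed by -0.07 at 48 h. Untreated Taf15 averaged 5.53 at 48 h and 4.58 at 72 h. Prr7, a membrane protein, was likewise undetected without Dox and at least 1.47-fold higher (adjusted p = 6.41e-06; 5.34 ± 0.12 with Dox and 4.51 ± 0.17 without, SD, n = 3 each). The transcription factor Foxk1 read 6.84, 6.68, 6.51 and 6.82 with Dox, against 5.71, 6.01, 6.11 and 6.13 without, a rise of 0.78 at 72 h with a difference of -0.65 at 48 h. Bpnt1, a phosphatase of sulphate metabolism, rose by 0.58 on its brightest probe, but its 3 other probes differed by -0.42, -0.36 and -0.16, and the median over probes had the opposite sign (-0.39, adjusted p = 0.131).

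**Figure D5:**
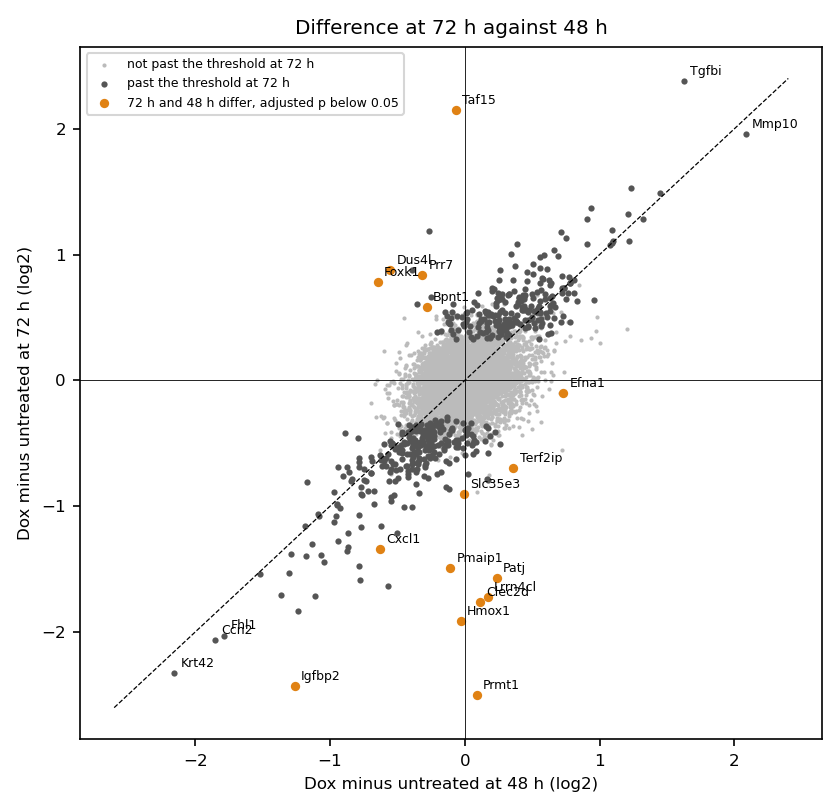
Each point is 1 gene, with its log2 difference, Dox minus untreated, at 48 h on the x axis and at 72 h on the y axis. Dark points passed the test at 72 h, orange points differ between the times, and the dashed line marks equal differences: Mmp10 and Krt42 lie near it, while Prmt1, Hmox1 and Taf15 lie near 0 at 48 h.

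Several measurements bear on how far a single probe can be trusted. Of 157 called genes with a second measured probe, 140 (89.2%) had the same sign on it and 51 also passed, while among 1909 uncalled genes 62.8% of second probes had the same sign. At 72 h 14 genes were detected on all Dox arrays and no untreated array, of which 7 were called, and 17 genes showed the reverse, of which 13 were called. Of 5 kept probes for beta-actin, Actb, the pair whose gap varied most over the arrays of the series was chosen. Such an extreme pair does not show how far a typical probe can be trusted. At 72 h the gap was -3.71 to -3.09 with Dox and -2.41 to -1.71 without. It was also lower with Dox, without overlap, at 6 and 12 h. At 24 h it overlapped, at -3.24, -2.83 and -3.04 with Dox against 0.91, -4.12 and -3.39 without. The treatments overlapped at 48 h too, so the gap did not follow treatment at every time. With that gap as a covariate 520 genes were called, of which 430 were among the 517. In the 6 fits that left out 1 replicate of 72 h, further named calls were lost. Those of Timp2, Chil1 and Pfkp ended in all 6, Elovl4 and S100a9 in 5, Cdc20, Hk2, Icam1, Ppl and Rpl7a in 4, and Cxcl16, Krt78, Mmp2, Pfkl, S100a3 and Tnfaip3 in 3. Defb6, Slpi and Foxk1 lost theirs in 2, and Ccn1, Cenpa, Plau, S100a16 and Wnt7b in 1. Of the 129 named and called genes 73 passed under each of 22 alternatives, among them Acta2, Fhl1, Ccn2, Tgfbi and Klf4.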

How the data were processed

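RNA from the cultures was measured on Illumina bead arrays. The deposited intensity values were bead summary signals without normalization, each beside a detection p-value that the authors deposited per probe, per the file headers. The authors also deposited log2 values, with no normalization method named in the sources used here, and these served only as an alternative. Signals were background-corrected with limma's neqc (limma 3.58.1, R 4.3.3), which estimates background from the detection p-values, adds an offset of 16 and quantile-normalizes the 29 arrays. A probe was kept if its detection p was below 0.01 on at least 2 arrays, which left 11794 of 25697 probes, of which 11090 had 1 gene symbol and 704 had none. A gene was read by its brightest probe (8271 genes, 2066 of them with several probes). Symbols were updated through Entrez identifiers. One limma model of 10 group means on 27 replicates was fitted, with p-values adjusted over all kept probes by Benjamini-Hochberg and a threshold of 0.05. The number of arrays limits the precision. The fit was also run on simulated arrays with independent noise. Such arrays cannot show how the fit behaves where replicates share technical effects.

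The genes compared and the gene lists were chosen with earlier results of these data known. Named genes were Fos, the 20 largest rises and falls without overlap of arrays, up to 4 members per list with the smallest adjusted p, and the 5 genes per direction with the smallest p for 72 h minus 48 h. Other genes, such as list members that did not pass, were added after their values were seen. Alternatives changed the background correction, scaling, filter, probe choice, arrays used, array weights and the block by letter.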

Additional observations from a re-analysis of the deposited data

Results flagged for a closer look

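A set of 16 genes is listed because their Dox effect at 72 h differed from that at 48 h by limma's test of the difference itself, with p-values adjusted over all kept probes. Each value is the effect at 72 h minus the effect at 48 h on the log2 scale, from 3 against 3 replicates at 72 h and 2 against 3 at 48 h. The effect was more negative at 72 h for Prmt1 (-2.59), Lrrn4cl (-1.89), Hmox1 (-1.88), Clec2d (-1.88), Patj (-1.81), Pmaip1 (-1.39), Igfbp2 (-1.17) and Terf2ip (-1.06). Slc35e3, a nucleotide sugar transporter relative (-0.89), Efna1, an ephrin ligand (-0.83), and Cxcl1 (-0.71) were also more negative. It was more positive for Taf15 (2.21), Dus4l (1.43), Foxk1 (1.43), Prr7 (1.15) and Bpnt1 (0.87).

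At 72 h Igfbp2 and Hmox1 were undetected on all 4 Dox arrays and Taf15 and Prr7 on all 4 untreated arrays, so their values rest on signals near background and are not exact sizes. Cxcl1 was lower with Dox at both times, by 1.34 at 72 h and 0.63 at 48 h. For Igfbp2 the Dox mean was 4.44 at 72 h and 4.44 at 48 h, while the untreated mean was 6.87 at 72 h and 5.70 at 48 h. Efna1 was the gene of the 16 that did not pass at 72 h itself: its difference was -0.10 there (adjusted p = 0.769) and 0.73 at 48 h. Dus4l, a dihydrouridine synthase, read 6.72, 6.69, 6.69 and 6.81 with Dox at 72 h, against 5.74, 5.73, 6.11 and 6.01 without. Slc35e3 read 6.55, 6.45, 6.43 and 6.48 with Dox, against 7.32, 7.44, 7.47 and 7.33 without. In both genes the arrays of the treatments did not overlap at 72 h. The brightest probe of Terf2ip, a telomere protein, differed by -0.70 at 72 h and another probe by 0.28.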

How the results depend on the processing

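The number of genes called lower at 72 h (276) stayed within 1.5 times under every alternative run except the 2-fold minimum, which left 40, and was 184 to 215 when 1 replicate was left out. Those called higher (241) were 122 under median scaling, 144 on the authors' values, 373 with array weights and 155 to 191 without 1 replicate. All calls (517) were 342 on the authors' values, 318 of them shared, and 342 to 406 without 1 replicate, the lowest without Dox replicate 2 and 344 without untreated replicate 2. A 2-fold minimum left 62. With the 72 h arrays alone 497 genes were called, 421 of them shared. The 16 genes that differed between 72 h and 48 h were 12 on the authors' values, only 7 of them shared, and 8 with no detection filter. They were 9 with the 48 and 72 h arrays alone, a choice made after seeing the data, and 3 to 13 without 1 replicate. The count was 3 without Dox replicate 1 of 48 h and 8 without Dox replicate 2 or 3 or untreated replicate 2 of 72 h. It was 10 without untreated replicate 3 of 72 h or untreated replicate 2 of 48 h. Fits without a replicate use fewer samples; for the other settings the cause was not tested. Bpnt1 at 72 h was -0.39 with the median over its probes.

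The letters shared by the treatments were tried as a replicate block. Same-letter deviations correlated at -0.053, 0.043 and 0.0036, so the letters were not taken as pairs. The block gave 508 calls over all groups, 483 of them shared, and 413 with the 72 h arrays alone, and 14 genes differed between 72 h and 48 h. Of 129 named and called genes, 73 passed in all 22 alternatives, 55 lost the call in at least 1 and 1 changed sign. Signals near background limit the dimmest genes.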
